A study of Homo sapiens with 8 samples.

Results

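The hypoxia pathway genes described here are the 10 genes HIF1A, ARNT, EGLN1, EGLN2, VHL, BNIP3, BNIP3L, PDK1, PDK3 and P4HA1, chosen by name and measured among 62639 genes listed in long-read RNA sequencing of MOLM-13 cells. MOLM-13 is an established human acute myeloid leukemia cell line, and PTBP1 is an RNA-binding protein that represses many alternative exons by binding pyrimidine-rich stretches near them. The 4 shPTBP1 libraries came from cells with a doxycycline-inducible short hairpin RNA against PTBP1, and the 4 shControl libraries from cells with a scrambled one. All 8 libraries carried an integrated lentiviral hairpin construct and received doxycycline for 9 days, and the labels number the biological replicates 1 to 4 in each group. One hairpin was used per group, so that loss of PTBP1 and any other difference between these cell lines cannot be told apart. Nanopore cDNA reads had been counted by the authors for each annotated transcript, and these counts were summed per gene. The question was whether the RNAs of the oxygen-sensing pathway and of its classical targets differed in level or in isoform use after loss of PTBP1.

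When oxygen is present, prolyl hydroxylases modify the HIF alpha subunits, and the VHL ubiquitin ligase complex binds the modified protein and marks it for destruction. When oxygen falls, the alpha subunit escapes, pairs with ARNT and switches on target genes through short DNA elements with the core ACGTG or GCGTG. This control acts mainly on the protein, so RNA counts measure the levels of the messages and not the activity of the pathway. The targets shift cells from respiration to glycolysis, remove mitochondria, modify collagen and restrain growth, and leukemia cells in the bone marrow are known to live at low oxygen. Among the members, HIF1A and ARNT are the DNA-binding subunits, EGLN1 and EGLN2 sense oxygen, and VHL binds the modified alpha subunit. BNIP3, BNIP3L, PDK1, PDK3 and P4HA1 are known as effectors under HIF control.

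The libraries held 1528449 to 1613342 counts, and 12322 to 12589 genes were detected in each. Levels are given as CPM, counts per 1000000 after TMM scaling of the library sizes, without division by transcript length, so levels of different genes are not compared. The targeted gene followed the labels: PTBP1 was at 9.88 ± 3.55 CPM in shPTBP1 and 47.5 ± 7.81 CPM in shControl (SD, n = 4 each), with a log2 fold change of -2.26, while its paralog PTBP2, whose RNA is a known target of PTBP1 repression, rose by 6.36 on the log2 scale. All of a list of 18 myeloid leukemia markers had at least 1 count, and 14 of them passed the filter on low counts. Below it, SPI1 and CD14 had 1 count each over all libraries, MEIS1 had 22 and FLT3 had 53. The summed level of the 18 markers was 12260 to 13374 CPM in shPTBP1 and 10606 to 11434 CPM in shControl without overlap. The markers did not move together: PRTN3, CTSG and CD68 were called higher (log2 fold changes 0.45, 0.32 and 0.36), CSF1R was called lower (-0.97), and abundant AZU1 was at 0.01. The part of these differences in the results below was not tested. In bulk RNA, a smaller number of cells of one kind and less RNA per cell cannot be told apart. Lymphocyte markers summed to at most 1.33 CPM, epithelial markers to 1.28 to 8.18 CPM and fibroblast or endothelial markers to 41.0 to 49.8 CPM, and CD3E, CD3D, MS4A1, CDH5 and all 3 megakaryocyte markers were at 0.

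Of the 10 hypoxia pathway genes, 1 was called lower in shPTBP1 and none higher at an adjusted p under 0.05 (edgeR quasi-likelihood test, Benjamini-Hochberg over all 7597 genes tested). Over all genes tested, 3.19% were called lower and 2.36% higher. The gene called was BNIP3, and it was also the only member whose groups of 4 libraries did not overlap, against 12.7% of all genes tested. At an unadjusted p under 0.05 there were 3 members lower, BNIP3, BNIP3L and P4HA1, and 0 higher. The share of all genes or isoforms at that threshold is not given, so unadjusted counts here and below have no background beside them. The log2 fold changes of 7 members were below 0 and those of 3 were above 0, with a median of -0.24, beside a median of 0.00 (50% below 0) for all genes. All 10 members passed the filter on low counts, and DESeq2, limma-voom and every other alternative run on all 8 libraries also called BNIP3 and no other member. DESeq2 gave no adjusted p for EGLN1, VHL and PDK1. With a mean of at least 50 counts these 3 and EGLN2 were not tested.

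**Figure D1:**
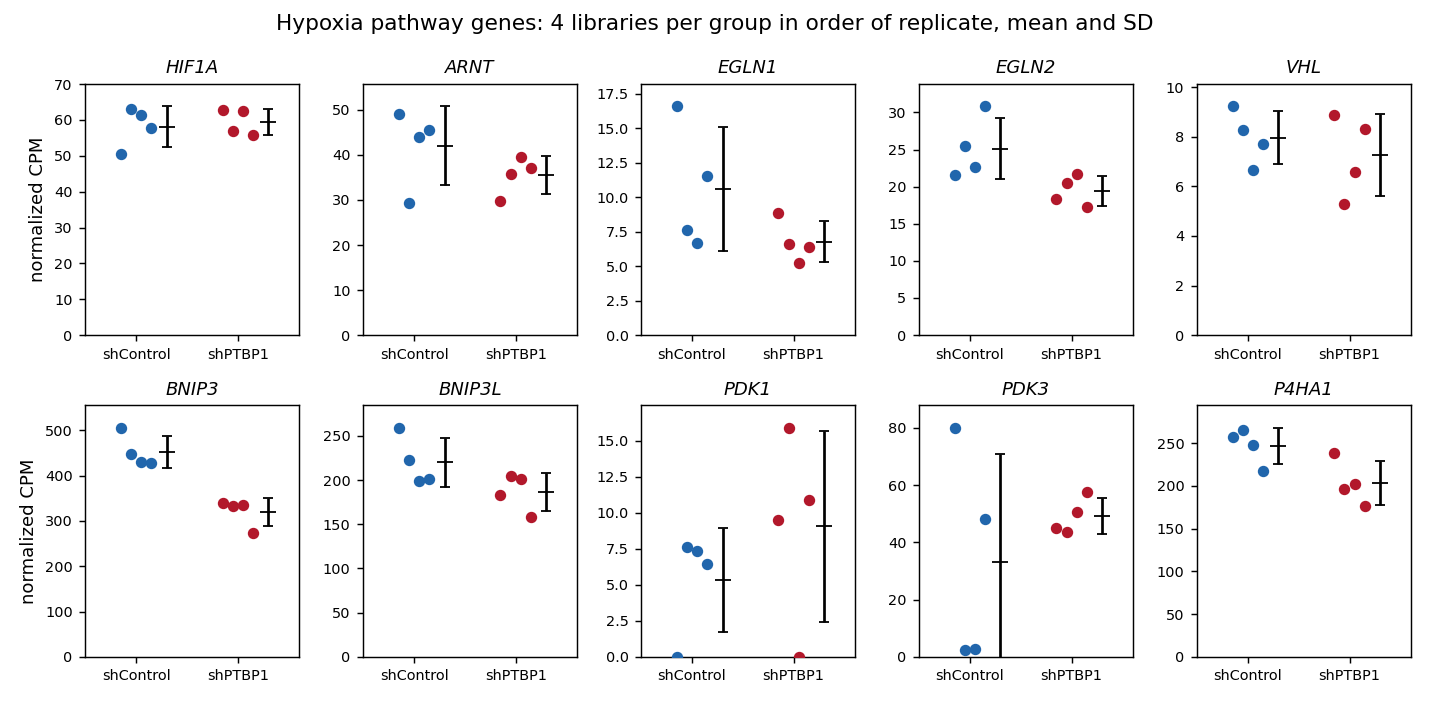
Normalized CPM (linear axis from 0) of each hypoxia pathway gene in the 4 shControl (blue) and 4 shPTBP1 (red) libraries, in order of replicate number, with the mean and SD in black. The groups separate for BNIP3 only, and single libraries of PDK1 and PDK3 lie at or near 0.

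HIF1A encodes the oxygen-regulated alpha subunit (GRCh38 chr14:61695513-61748259, plus strand). Its level was 62.6, 56.8, 62.5 and 55.7 CPM in shPTBP1 replicates 1 to 4, and 50.4, 63.0, 61.4 and 57.7 CPM in the shControl replicates. The groups overlapped, with the lowest library in shControl. The log2 fold change was 0.03 ± 0.11 (SE; 95% interval -0.20 to 0.26; adjusted p = 0.911 by edgeR; exact permutation test of 4 against 4, two-sided p = 0.771). The interval is the narrowest among the 5 regulators, and it holds changes of up to 0.26 on the log2 scale. From 82 to 99 counts lay behind each HIF1A value. HIF1A-202, the main coding transcript, held 96.4% ± 1.33 of the HIF1A counts in shPTBP1 and 95.7% ± 2.39 in shControl (exact permutation test, p = 0.571). Transcripts of the antisense gene HIF1A-AS3 had at most 3 counts in a library. Across the 8 libraries, the 3 genes whose log2 CPM followed HIF1A most closely among 7596 compared were SUV39H1 (Pearson r = 0.962), NOP2 (0.918) and PECR (0.911), a description over libraries that share the same 2 conditions.

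ARNT, also called HIF1B, encodes the constitutive partner of the alpha subunits (chr1:150809713-150876708, minus strand). It was measured at 29.7, 35.7, 39.5 and 37.1 CPM in shPTBP1, and at 49.2, 29.3, 44.01 and 45.6 CPM in shControl. All the other shControl libraries lay above every shPTBP1 library, but shControl replicate 2 was the lowest of all 8. The log2 fold change of -0.24 ± 0.16 (SE; 95% interval -0.60 to 0.11) did not pass the test (edgeR adjusted p = 0.459; exact permutation p = 0.257).

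The ARNT counts were divided between several isoforms. ARNT-202, a coding transcript of 22 exons, took 50.7% ± 0.85 of its counts in shPTBP1 and 53.6% ± 12.2 in shControl (exact permutation p = 0.714). ARNT-204, a transcript of 17 exons that GENCODE annotates as a target of nonsense-mediated decay, took 40.4, 42.6, 35.0 and 41.4% in shPTBP1 and 37.5, 26.1, 47.0 and 28.2% in shControl. These shares overlapped, and the difference of 5.17 percentage points was within the spread of the shControl libraries (exact permutation p = 0.343). The protein-coding share of ARNT counts was the lowest among the 10 members, at 59.3% ± 4.18 in shPTBP1 and 64.6% ± 10.4 in shControl (exact permutation p = 0.343). For none of the 10 members did the protein-coding share separate the groups.

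EGLN1, the prolyl hydroxylase PHD2 that is the main oxygen sensor for HIF1A (chr1:231363751-231422287, minus strand), was at 8.86, 6.61, 5.27 and 6.40 CPM in shPTBP1 and at 16.6, 7.64, 6.67 and 11.5 CPM in shControl. Its fitted fold change was -0.64 ± 0.34 on the log2 scale (95% interval -1.37 to 0.08; edgeR adjusted p = 0.321; exact permutation p = 0.143). The groups overlapped, and the value was -0.34 without shControl replicate 1, the highest library. From 8 to 27 counts per library lay behind it. EGLN1-201 held nearly all of its counts in both groups, at 97.5% and 90.6%.

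EGLN2, the related hydroxylase PHD1 (chr19:40798996-40808434, plus strand), was at 18.3, 20.5, 21.7 and 17.3 CPM in shPTBP1 and at 21.5, 25.5, 22.7 and 30.8 CPM in shControl. The groups met at a single pair of libraries, shPTBP1 replicate 3 and shControl replicate 1. Its log2 fold change was -0.37 ± 0.18 (95% interval -0.75 to 0.01), short of the threshold after adjustment (edgeR adjusted p = 0.277; exact permutation p = 0.0571, where 0.0286 is the smallest p that 4 against 4 can give). The overlapping readthrough gene RAB4B-EGLN2 had 0 counts, and EGLN2-201 held 96.1% and 98.6% of the EGLN2 counts in shPTBP1 and shControl.

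VHL, the substrate-binding subunit of the ligase (chr3:10141778-10153667, plus strand), was at 8.86, 5.29, 6.58 and 8.32 CPM in shPTBP1 and 9.22, 8.28, 6.67 and 7.70 CPM in shControl. These values overlapped widely. The log2 fold change was -0.13 ± 0.29 (95% interval -0.75 to 0.49; edgeR adjusted p = 0.860; exact permutation p = 0.486), from 8 to 15 counts per library. VHL-201 took 85.6% of the VHL counts in shPTBP1 and 86.4% in shControl.

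The partners of these regulators gave few calls. In a list of 20 further genes of oxygen sensing and the HIF complex, 13 were tested, 0 were called lower and 1 higher, with a median log2 fold change of 0.03. The call was VBP1, a prefoldin subunit that binds the VHL protein, at 475 ± 24.8 CPM in shPTBP1 and 395 ± 24.0 CPM in shControl, a log2 fold change of 0.26 ± 0.07 (edgeR adjusted p = 0.0336). The VBP1 call was lost when any library other than shPTBP1 replicate 2 or shControl replicate 3 was left out, and the list then had 0 genes called higher. The heat shock protein gene HSP90AA1 was called lower, as the only such gene of the list, without shControl replicate 2. Among the genes not called, CREBBP, a coactivator that binds the HIF alpha subunit, had the most negative value (-1.10, edgeR adjusted p = 0.0870), and ELOC, a subunit of the VHL ligase complex, the most positive (0.17). EPAS1, which encodes HIF2 alpha, had at most 1 count in a library, ARNT2 had none, and the third hydroxylase gene EGLN3 had 0 to 3.

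**Figure D2:**
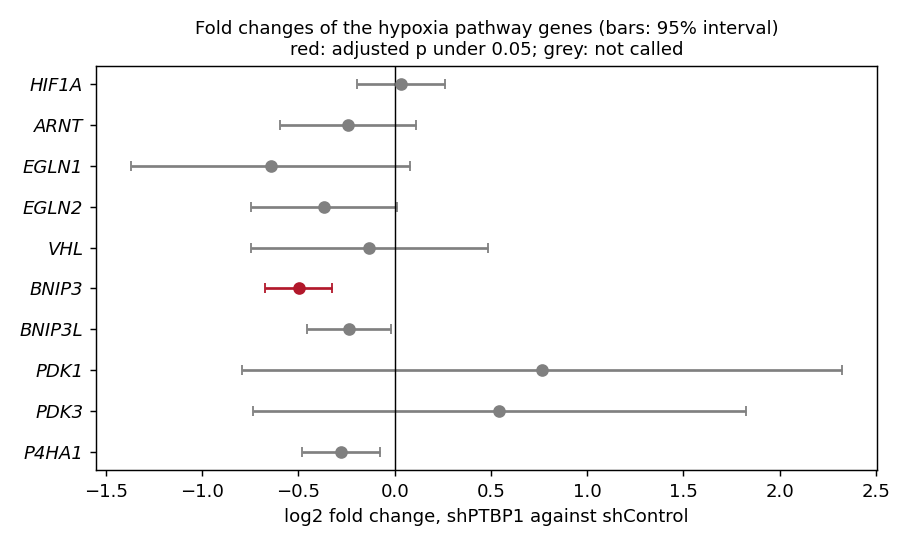
Log2 fold change of each hypoxia pathway gene in shPTBP1 against shControl (points) with its 95% interval from edgeR (bars). The interval of BNIP3 (-0.67 to -0.32) lies below 0 and its point is red for an adjusted p under 0.05, while those of PDK1 and PDK3 are the widest.

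BNIP3 encodes a receptor in the outer mitochondrial membrane that recruits autophagosomes to mitochondria (mitophagy) and is a classical HIF target (chr10:131967684-131981967, minus strand). It was at 339, 332, 336 and 274 CPM in shPTBP1 replicates 1 to 4. In shControl it was at 504.5, 448, 431 and 427 CPM. Every shPTBP1 library lay below every shControl library, by at least the gap from 339 to 427 CPM. BNIP3 fell by 0.50 ± 0.08 on the log2 scale (SE; 95% interval -0.67 to -0.32; edgeR adjusted p = 0.00336; exact permutation p = 0.0286, the smallest possible). The group means were 320.3 ± 31.0 and 453 ± 35.7 CPM (SD, n = 4 each).

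The counts behind BNIP3 were 428 to 536 per library in shPTBP1 and 646 to 821 in shControl, the largest among the 10 genes. BNIP3 was called in all 8 fits that left out 1 library, with log2 fold changes from -0.53 to -0.43 and edgeR adjusted p from 0.00660 to 0.0143. In those fits the call did not rest on shPTBP1 replicate 4 or shControl replicate 1, the extreme libraries of each group. BNIP3-201, a coding transcript of 6 exons, held 99.5% and 99.7% of the counts in shPTBP1 and shControl, so that the lower level was that of a single isoform. GENCODE lists 44 pseudogenes of BNIP3, and of these 2 had any count, with at most 1 in a library.

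The 250 bases before the start of BNIP3 are shown because BNIP3 was the member that changed and because its promoter is rich in the HIF core. The sequence is from the RefSeq promoter table (GRCh38.p14, chr10:131981924-131982173, minus strand), in the direction of transcription, and capitals mark the cores ACGTG and GCGTG on either strand (CACGT and CACGC as read here, with the palindrome CACGTG counted on both strands).

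BNIP3: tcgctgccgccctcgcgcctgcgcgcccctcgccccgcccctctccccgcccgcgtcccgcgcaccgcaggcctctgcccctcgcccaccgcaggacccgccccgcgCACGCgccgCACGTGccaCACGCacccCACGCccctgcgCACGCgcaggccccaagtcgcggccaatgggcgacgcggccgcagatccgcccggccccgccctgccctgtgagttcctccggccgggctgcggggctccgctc

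P4HA1: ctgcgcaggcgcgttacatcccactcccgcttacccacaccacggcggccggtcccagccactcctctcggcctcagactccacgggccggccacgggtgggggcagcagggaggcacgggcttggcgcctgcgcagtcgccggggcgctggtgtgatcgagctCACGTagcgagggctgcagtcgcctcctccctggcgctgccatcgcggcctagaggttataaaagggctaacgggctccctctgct

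BNIP3 held 6 cores in this window, as did 0.656% of all 27305 promoters of the table with 6 or more and 0.951% of the 6202 promoters of tested genes. P4HA1, printed beside it for comparison (chr10:73096867-73097116, minus strand), held 1. EGLN2 and PDK3 held 2 each, HIF1A and EGLN1 1 each, and ARNT and PDK1 0, and VHL and BNIP3L were not matched in the table. The PDK1 window precedes a start that the counted transcripts did not use, since the annotated transcript that begins there at 172555373 had 0 counts and the main transcript PDK1-201 begins at 172556090, so the 0 says nothing of the promoter of PDK1-201. At least 1 core was present in 6 of these 8 members (75%), beside 43.1% of all promoters and 60.5% of those of tested genes. The members' windows are also rich in G and C, with a median of 74.6% beside 64.4% for the tested genes, and the part of base composition in these shares was not tested. A match is a run of letters and not a measured binding site.

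BNIP3L (NIX), the paralog of BNIP3 that clears mitochondria from maturing red cells (chr8:26383054-26505636, plus strand), was at 183, 205, 201 and 158 CPM in shPTBP1 and at 259, 222, 199 and 201 CPM in shControl. The groups overlapped, with shPTBP1 replicates 2 and 3 within the range of the shControl libraries. The log2 fold change was -0.24 ± 0.10 (95% interval -0.46 to -0.02), with an edgeR p of 0.0351 before and 0.221 after adjustment (exact permutation p = 0.143). It was not called in any fit that left out 1 library, and it moved to -0.15 without shControl replicate 1. BNIP3L-201 held 99.8% and 99.3% of the counts, and the gene PNMA2 inside the BNIP3L locus was counted apart, with 51 to 73 counts per library. The intervals of BNIP3 and BNIP3L overlap, and the difference between their changes was not tested.

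No call stood beside BNIP3 among other mitophagy genes. In a list of 19 other mitophagy receptors and partners, 14 were tested, 7 had a log2 fold change below 0 and 7 above, the median was -0.03, and 0 were called by edgeR, by DESeq2 or by limma-voom. At an unadjusted p under 0.05 there were 0 lower and 1 higher, PHB2, an inner-membrane receptor, at a log2 fold change of 0.21 (edgeR adjusted p = 0.0845), which was named after its values were seen. At the ends of the list, NBR1, a cargo adaptor of autophagy, was at -0.29 and the autophagy kinase gene ULK1 at 0.35, with errors of 0.28 and 0.74 (SE). ULK1 had 0 counts in shControl replicates 1 and 3. The filter on low counts mattered here, since the autophagosome gene MAP1LC3B was called lower when no filter was used.

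PDK1 encodes one of the kinases that switch off pyruvate dehydrogenase and so keep pyruvate out of the mitochondria (chr2:172555373-172608669, plus strand). Its counts were 15, 24, 0 and 17 in shPTBP1 replicates 1 to 4 and 0, 12, 11 and 10 in the shControl replicates. As CPM these were 9.49, 15.9, 0 and 10.9 against 0, 7.64, 7.34 and 6.42. The 3 shPTBP1 libraries above 0 all exceeded all shControl libraries, but 1 library of each group was at 0. Over all 8 libraries the log2 fold change was 0.77 ± 0.72 (95% interval -0.79 to 2.32; edgeR adjusted p = 0.624; exact permutation p = 0.343). Without the libraries at 0, a choice made after the values were seen, it was 0.75 (edgeR adjusted p = 0.299). It ranged from 0.34 without shControl replicate 1 and 0.36 without shPTBP1 replicate 2 to 1.18 without shPTBP1 replicate 3, and none of the 8 leave-out fits called it.

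PDK3, the isoenzyme on the X chromosome (chrX:24465244-24550466, plus strand), had 71, 66, 77 and 90 counts in shPTBP1 and 130, 4, 4 and 75 in shControl. The shPTBP1 libraries lay close together at 43.6 to 57.6 CPM, while shControl spread over 79.9, 2.55, 2.67 and 48.1 CPM. The log2 fold change of 0.54 ± 0.59 (95% interval -0.74 to 1.82; edgeR adjusted p = 0.683; exact permutation p = 0.371) had no settled direction, because it became -0.38 (edgeR adjusted p = 0.391) without shControl replicates 2 and 3. This leave-out was also chosen after the values were seen. In those 2 libraries PDK3-203, which carried 98.4% of the PDK3 counts in shPTBP1, was at 0.

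The annotated main transcripts of both kinases are long, at 14072 bases for PDK1-201 and 12720 bases for PDK3-203. The part of transcript length or of transcript assignment in the zeros and low counts was not tested. Around the kinases, 9 of 10 further genes of the pyruvate dehydrogenase complex and its regulators were tested and 0 were called in either direction by edgeR, DESeq2 or limma-voom, 0 at an unadjusted p under 0.05, with a median log2 fold change of 0.08. Values ran from -0.97 for the phosphatase regulator PDPR to 0.36 for the phosphatase PDP2, with errors of 0.56 and 0.59 (SE). PDPR had 0 counts in shPTBP1 replicate 1, and PDP2 had 0 in shControl replicate 1. The E1 subunit genes PDHA1 and PDHB were at 0.14 and 0.01.

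P4HA1 encodes the catalytic alpha subunit of collagen prolyl 4-hydroxylase, an oxygen-dependent enzyme related in chemistry to the EGLN proteins (chr10:73007217-73096974, minus strand). It was at 238.5, 196, 202 and 177 CPM in shPTBP1 and at 257, 265, 247 and 218 CPM in shControl. One shPTBP1 library, replicate 1, reached into the shControl range, and the other 3 lay below it. The log2 fold change was -0.28 ± 0.09 (95% interval -0.48 to -0.08), with an edgeR p of 0.0106 before and 0.111 after adjustment (exact permutation p = 0.0571). Without shPTBP1 replicate 1 it was -0.36 and was called (edgeR adjusted p = 0.0341), the single one of 8 leave-out fits that called it.

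Of 12 other collagen prolyl and lysyl hydroxylase genes and partners, 6 were tested, 5 had a log2 fold change below 0, and 2 were called lower and 0 higher, with a median of -0.51. Of all genes tested, 3.19% were called lower and 50% were below 0. PLOD1, a lysyl hydroxylase, fell from 187 ± 10.6 CPM in shControl to 95.7 ± 17.6 CPM in shPTBP1 (log2 fold change -0.97 ± 0.11, edgeR adjusted p = 0.000272). P4HA2, the second alpha subunit, fell from 22.4 ± 2.10 to 12.3 ± 1.15 CPM (-0.86 ± 0.18, adjusted p = 0.0145). Both remained called in all 8 leave-out fits. P4HB, the protein disulfide isomerase that forms the beta subunit for P4HA1 and P4HA2, was at -0.32 (edgeR adjusted p = 0.0726) and was called by DESeq2 (adjusted p = 0.0137). Among those not called, the values ran from -0.69 for P3H1 to 0.00 for CRTAP, partners in collagen 3-hydroxylation.

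P4HA1 was the one member with isoforms whose shares separated the groups. P4HA1-203 and P4HA1-204, of 15 exons and 2743 bases each, carried most of its counts. P4HA1-203 took 37.1, 31.3, 36.8 and 37.0% of the P4HA1 counts in shPTBP1 and 45.2, 43.0, 41.2 and 42.5% in shControl. P4HA1-204 took 46.9, 54.5, 51.8 and 47.8% in shPTBP1 and 42.1, 43.8, 43.7 and 43.95% in shControl. Neither pair of groups overlapped. The difference of the mean share, shPTBP1 minus shControl, was -7.44 percentage points for P4HA1-203 and 6.91 points for P4HA1-204 (exact permutation p = 0.0286 each, unadjusted), while P4HA1-202 stayed at 10.3% and 10.1%.

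Neither isoform passed the test across all isoforms. A call needed an adjusted p under 0.05 in edgeR's diffSpliceDGE and a change of at least 10 percentage points, which 1.12% of 5464 isoforms met. The 6 isoforms of members that could be tested, 4 of P4HA1 and 2 of ARNT, gave 0 calls, and 1 of them, P4HA1-203, had a diffSpliceDGE p under 0.05 before adjustment (0.0430, and an adjusted p of 0.716 by edgeR). Neither limma's diffSplice, other thresholds nor leaving out single libraries called any of them. Shares that did not overlap between the groups were found for 10.7% of the isoforms tested.

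**Figure D3:**
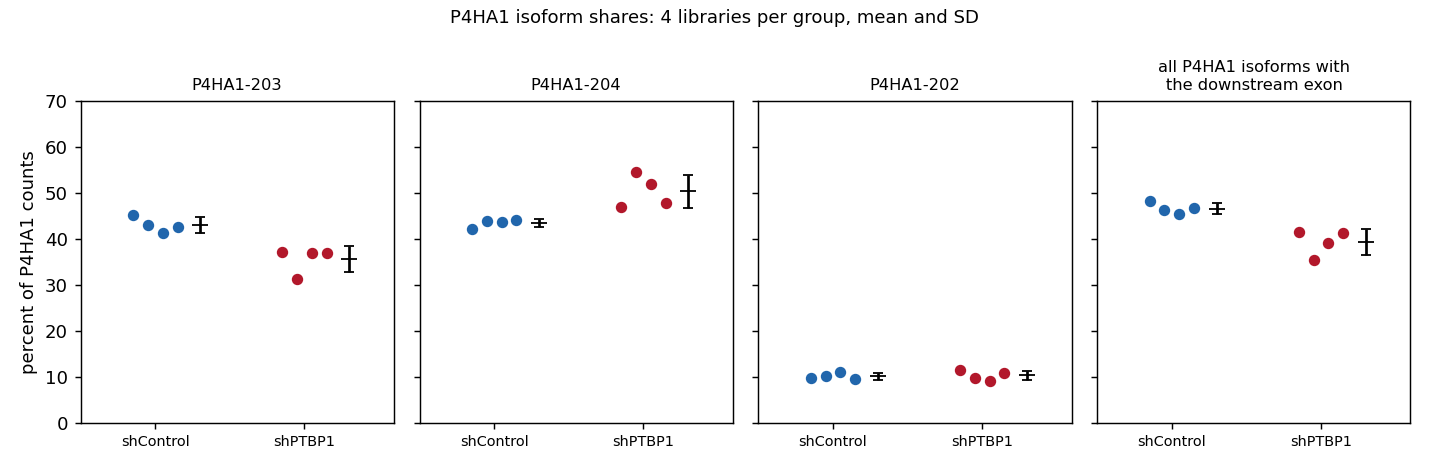
Percent of P4HA1 counts (linear axis from 0) on P4HA1-203, P4HA1-204 and P4HA1-202, and on all isoforms with the downstream alternative exon, in each shControl (blue) and shPTBP1 (red) library in order of replicate, with mean and SD in black. P4HA1-203 and the downstream exon are lower and P4HA1-204 is higher in every shPTBP1 library, and P4HA1-202 overlaps.

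The isoforms with these shares differ by a pair of alternative exons of 71 bases each, of which every coding P4HA1 isoform detected has one. The upstream exon (chr10:73044981-73045051) belongs to P4HA1-202 and P4HA1-204, and the downstream exon (chr10:73043887-73043957) to P4HA1-201, P4HA1-203 and P4HA1-205. Both are printed with the 100 intron bases before them, because the balance between them is the difference measured and because PTBP1 is known to act from such intron stretches. The sequences are from GRCh38 on the minus strand, and capitals mark the exon.

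Upstream exon: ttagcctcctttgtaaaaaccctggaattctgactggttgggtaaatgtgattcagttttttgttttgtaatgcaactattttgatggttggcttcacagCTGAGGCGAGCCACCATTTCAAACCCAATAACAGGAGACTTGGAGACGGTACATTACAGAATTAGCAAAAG

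Downstream exon: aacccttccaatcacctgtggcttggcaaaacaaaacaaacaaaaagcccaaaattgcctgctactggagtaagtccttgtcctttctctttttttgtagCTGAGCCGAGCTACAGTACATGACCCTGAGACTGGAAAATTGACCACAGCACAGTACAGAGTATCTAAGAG

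The 2 exons are identical at 43 of 71 positions. Summed over isoforms, the downstream exon was in 41.4, 35.4, 39.1 and 41.3% of the P4HA1 counts in shPTBP1 and in 48.1, 46.2, 45.3 and 46.6% in shControl. The means were 39.3% ± 2.83 and 46.5% ± 1.17, a difference of -7.25 percentage points (exact permutation p = 0.0286, unadjusted, for a sum chosen after the isoform shares were seen). It stayed between -7.95 and -5.94 points when each library was left out in turn. The isoforms also differ by 4 bases at the boundaries of a pair of later exons, and the form of P4HA1-203 and P4HA1-202 there took 45.8% ± 3.36 and 53.1% ± 1.39, so that the counts do not tell which of the differing exons moved.

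In the 100 bases before the upstream exon 56.0% of the letters were C or T, and 55.0% before the downstream exon. The median was 55.0% in 73029 such windows before internal exons of protein-coding transcripts of the genes tested. The motif TCTT was searched on the strand that reads as the RNA, as printed above. It occurred 0 times before the upstream exon and 1 time before the downstream exon, and 65.3% of all windows held it. The motif CTCTCT occurred before neither, and 7.6% of all windows held it.

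Several classical HIF targets that are not glycolytic enzymes were lower in shPTBP1. Of 38 such genes, 24 were tested, 20 had a log2 fold change below 0, and 8 (33.3%) were called lower and 0 higher, with a median of -0.36. Of all genes tested, 3.19% were called lower and 50% were below 0. Besides PLOD1 and P4HA2, the genes called were TMEM45A, NDRG1, ZNF395, DDIT4, PFKFB4 and ANKRD37. A promoter core was present in 28 of the 32 list genes with a promoter in the table (87.5%), beside 60.5% of the promoters of tested genes and 10 of 17 (58.8%) for the HIF targets of glycolysis described below. The list was written as known HIF targets, and the 32 include genes that were not tested. The median share of G and C was 68.0% in its windows, 64.4% for tested genes and 71.2% for the glycolysis list. The part of list choice and base composition was not tested.

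DDIT4 (REDD1), an inhibitor of mTORC1 that HIF induces under low oxygen, fell from 160 ± 31.2 CPM in shControl to 109 ± 13.2 CPM in shPTBP1 (log2 fold change -0.56, edgeR adjusted p = 0.0243). NDRG1, a stress-response gene widely used as a hypoxia marker, fell from 33.1 ± 8.30 to 17.2 ± 2.20 CPM (-0.95, adjusted p = 0.0168). PFKFB4, which sets the level of the glycolytic activator fructose 2,6-bisphosphate, fell from 40.0 ± 14.3 to 20.4 ± 4.51 CPM (-0.97, adjusted p = 0.0317). TMEM45A, a membrane protein gene found in hypoxia signatures, fell from 105 ± 8.91 to 66.3 ± 6.58 CPM (-0.67, adjusted p = 0.00194). ZNF395 fell from 66.3 ± 12.1 to 41.1 ± 7.32 CPM (-0.69, adjusted p = 0.0213). ANKRD37, a small ankyrin-repeat gene, was at 16.3 ± 6.80 and 6.66 ± 2.90 CPM (-1.29, adjusted p = 0.0493), and its groups overlapped. The ANKRD37 call was lost with limma-voom (adjusted p = 0.0752) and with limma-trend (0.0550), and it held in 2 of the 8 fits that left out 1 library. DESeq2 kept 6 of the 8 genes called and gave no adjusted p for P4HA2 and ANKRD37.

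Among the targets not called, the histone demethylase gene KDM3A had the most negative value (-1.11, edgeR adjusted p = 0.0793) and MXI1, a MYC antagonist, the most positive (0.19, adjusted p = 0.864). The count of 8 depended on single libraries. It was 4 without shPTBP1 replicate 3, without shPTBP1 replicate 4 or without shControl replicate 4, and 5 without shPTBP1 replicate 1 or without shControl replicate 1. PLOD1, P4HA2 and TMEM45A remained called in all 8 of these fits. In shControl, replicate 1 was the highest of the 4 libraries for 6 of the 8 genes called and for 6 of the 10 members.

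Among 18 HIF targets of glucose uptake and glycolysis, 17 were tested, all 17 had a log2 fold change below 0, and 9 (52.9%) were called lower, with a median of -0.42. Of all genes tested, 3.19% were called lower and 50% were below 0. The paper had already reported, from these libraries, lower HK2 and SLC2A1 and a link of the lower genes to glycolysis. The 9 genes called were SLC2A1, HK1, HK2, GPI, PFKL, ALDOC, ENO2, PKM and LDHA, with log2 fold changes from -0.94 for ENO2 to -0.28 for LDHA. Of those not called, SLC2A3, a glucose transporter, was at -0.48 (edgeR adjusted p = 0.286) and PGK1 at -0.04. PKM and SLC2A1 were called in all 8 leave-out fits, HK2 in 6, GPI and ALDOC in 5 each, PFKL in 3, HK1 in 2, and ENO2 and LDHA in 1 each. LDHA was also not called with limma-voom (adjusted p = 0.0555), with DESeq2's size factors in edgeR (0.0509) or with coding transcripts only (0.0506). Calls were also gained in alternatives. PFKP, at -0.33 (edgeR adjusted p = 0.0578), was called by DESeq2 (adjusted p = 0.0498), with limma-trend (0.0395), with other filters and without shPTBP1 replicate 1. ALDOA, at -0.17, was called with limma-trend (adjusted p = 0.0285) and with a mean of at least 50 counts. The number called was 2 without shPTBP1 replicate 3, 3 without shPTBP1 replicate 4, and 4 without shPTBP1 replicate 2 or without shControl replicate 4. BNIP3, with a fold change of -0.50, lay within the range of both target lists. So did ARNT (-0.24), EGLN1 (-0.64), EGLN2 (-0.37), VHL (-0.13), BNIP3L (-0.24) and P4HA1 (-0.28), none of which was called. HIF1A, at 0.03, was not called either.

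**Figure D4:**
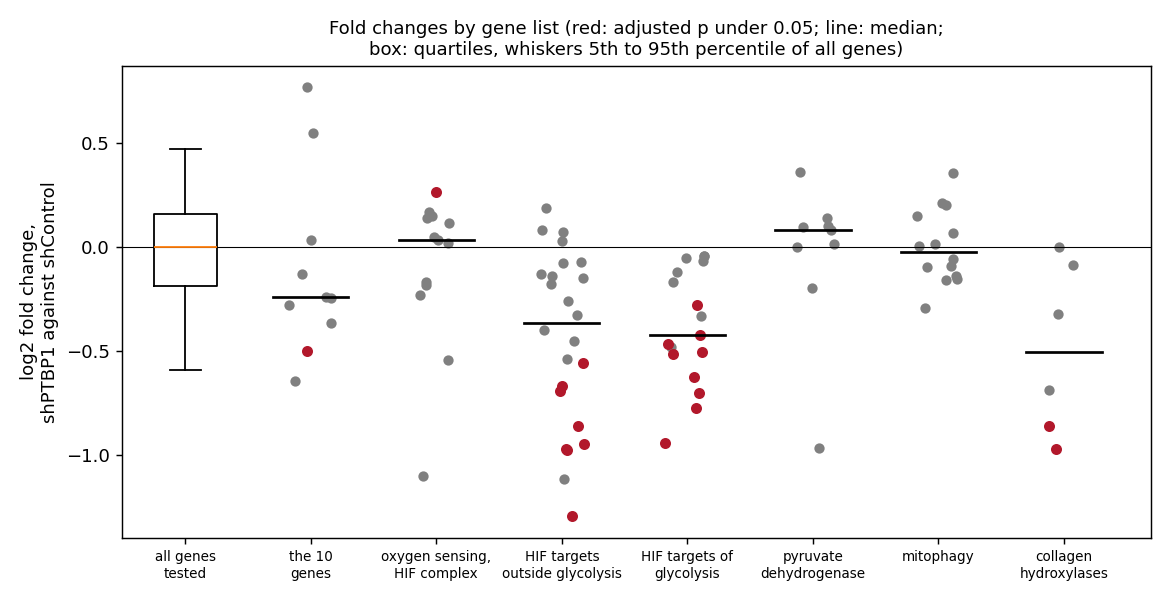
Log2 fold change in shPTBP1 against shControl of each tested gene of the 10 hypoxia pathway genes and of 6 lists around them, with medians as black lines and genes at an adjusted p under 0.05 in red. The box shows the quartiles of all 7597 genes tested, with whiskers from the 5th to the 95th percentile; the medians of the target lists (-0.36 and -0.42) lie below the box's median of 0.00.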

How the data were processed

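Long-read RNA sequencing was carried out on 4 shPTBP1 and 4 shControl libraries of MOLM-13 cells. The authors sequenced cDNA on a nanopore instrument, mapped reads with minimap2 on hg38, kept alignments with a mapping quality above 50, and deposited whole-number StringTie counts per transcript without normalization. The annotation they used is not given in the sources used here. A second deposited table, named TPM, holds CPM values, equal to the authors' counts divided by the library total, per 1000000, to within 1e-06. Groups and replicate numbers came from the labels.

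Transcripts were assigned to genes by Ensembl identifier in GENCODE version 44, which held 252562 of 254070. The other 1508 transcripts, with 0.0876 to 0.1151% of the counts, were left out. Gene counts were tested with edgeR 4.0.16 (TMM, filterByExpr with a minimum count of 10, quasi-likelihood test, group only), and isoforms with its diffSpliceDGE, in R 4.3.3. Calls needed an adjusted p (Benjamini-Hochberg) under 0.05. Two-sided exact permutation tests, unadjusted, were used for single values. Isoform tests of the study used another tool, not installed here.

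Alternatives were DESeq2 1.42.0, limma 3.58.1 (voom, trend on log2 of CPM plus 1, diffSplice), DESeq2 size factors, other filters and thresholds, coding transcripts only, the replicate number as a block, and each library left out. Same-numbered libraries did not deviate together (correlations -0.0328 to 0.00889), so numbers were not treated as pairs. Squared differences between libraries of a group were 2.03 to 3.73 times counting error, so none was a copy. The biological coefficient of variation was 10.3%. Tested on simulated data for this comparison over 7597 genes, edgeR found 39% of 100 genes changed by 0.5 on the log2 scale and 92% of 100 changed by 1, with 10 false calls, and diffSpliceDGE found 100% of 100 swapped isoform pairs over 2046 genes. The changed genes were drawn from those with higher counts, so these shares do not cover EGLN1, VHL and PDK1. The swapped isoforms differed clearly in level, so a shift of the size seen in P4HA1 was not simulated. Intervals cover the spread between libraries only.

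The members and lists were chosen with earlier results of these data known. Named genes are the members, their isoforms with a share of at least 10%, and in each list the genes called and the largest fall and rise not called, with PTBP1, PTBP2 and the 3 genes most like HIF1A. Others named are described as chosen later or for a call in an alternative. One further marker list is not reported here.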

Additional observations from a re-analysis of the deposited data

Results flagged for a closer look

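Among 42 groups of 4 values screened for a library far from the other 3, 6 were found by Dixon's test, where chance gives about 1 in 20. BNIP3 in shPTBP1 replicate 4 was at 274.02 CPM, below the other shPTBP1 libraries at 332 to 339 CPM, and BNIP3 was also called without it. PDK1 in shControl replicate 1 was at 0, beside 6.42 to 7.64 CPM in the other shControl libraries. The share of EGLN1-201 in shPTBP1 replicate 4 was 90%, with the other 3 at 100%, and rests on 10 counts. The share of BNIP3L-201 in the same library was 99.19%, with the others at 100%. For EGLN1-201 and BNIP3L-201 the other 3 shares were tied at 100%, so that any lower value would be flagged. The chance rate of 1 in 20 does not apply to them. The share of P4HA1-203 in shPTBP1 replicate 2 was 31.313%, beside 36.8 to 37.1% in the others. The share of P4HA1-204 in shControl replicate 1 was 42.105%, beside 43.7 to 43.95%.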

How the results depend on the processing

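BNIP3 was called under all 16 alternatives (log2 fold changes -0.54 to -0.43). The others were called under none that tested them, except P4HA1 without shPTBP1 replicate 1. EGLN1, VHL and PDK1 each had a result under 14 of the 16 alternatives and EGLN2 under 15. The fold change of HIF1A, near 0, turned to -0.0032 with limma-trend and to -0.030 without shControl replicate 1, and that of PDK3 to -0.38 without shControl replicates 2 and 3; with limma-voom PDK3 was at 1.82. Without a filter 1 mitophagy gene (MAP1LC3B) was called lower. With a mean of at least 50 counts 4 of the HIF targets outside glycolysis were called lower, since 4 of the 8 were no longer tested. With limma-trend 0 genes of oxygen sensing were called higher. Isoform calls were 154 with limma's diffSplice and 28 with a minimum change of 0.2, and with each the members had 0. Where it is not stated, the cause was not tested.

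Leaving out each library in turn gave 184 to 358 genes called (107 to 190 lower, 77 to 168 higher), 1 to 2 members, 6 to 15 genes of the lists, 0 to 1 lower and 0 to 1 higher for oxygen sensing, 4 to 8 HIF targets outside glycolysis, 2 to 9 of glycolysis, 39 to 55 isoforms, and HIF1A fold changes of -0.030 to 0.076. The fewest genes were called without shPTBP1 replicate 3. With replicate number added as a block, edgeR called 323 genes (421 without it), with 1 member, 7 targets outside glycolysis (ANKRD37 was lost) and 50 isoforms, and BNIP3 at -0.50 (edgeR adjusted p = 0.00373). The numbers were shared without a pairing. The lowest depth lay behind EGLN1, VHL and PDK1, at most 27 counts in a library.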

Other observations

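ERO1A, the endoplasmic reticulum oxidase gene among the HIF targets outside glycolysis, was at -0.15 on the log2 scale when all its transcripts were counted (edgeR adjusted p = 0.579) and at -0.68 when protein-coding transcripts alone were counted (edgeR adjusted p = 0.0406). It was chosen after its values were seen, and the cause was not tested.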
